A study of Mus musculus with 6 samples.

Results

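The cytosolic ribosomal protein genes were taken by name: protein-coding genes whose symbol starts with Rpl or Rps followed by a digit, the stalk genes Rplp, and Rpsa, without the S6 kinase genes Rps6k. This gave 95 of the 78409 genes in the deposited table. They comprised 77 canonical genes (46 of the large and 31 of the small subunit), 8 paralogues, 9 retrocopies annotated as protein-coding, and Rps19bp1, which matches by name but encodes a binding partner of a ribosomal protein and not a ribosomal protein. The classes follow the gene names, and Rpl10l, counted as a paralogue, has 1 exon where Rpl10 has 7. A gene was tested when it reached 1 CPM (counts scaled to a common library total) in at least 3 of the 6 libraries, which 91 of the 95 did, all 77 canonical genes among them. The paralogue Rpl10l and the retrocopies Rps23rg1, Rpl27rt and Rplp1rt did not, and no library held more than 0.632 deposited CPM of any of them. Hearts came from mice aged 11 months, 3 with a knockout of Ybx1 in cardiomyocytes (labelled Ybx1cmKO) and 3 littermates labelled only as control. Alleles, Cre driver and strain are not given in the sources used here. This comparison asks how heart mRNA levels change once cardiomyocytes lack Ybx1. The tissue is whole heart, so other cells still carry the gene, and in bulk RNA fewer cells of a type and less RNA per cell cannot be told apart.

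Cytosolic ribosomes consist of ribosomal RNA and ribosomal proteins, and most of these proteins are present once per subunit, so their genes are expressed together at high levels. Their mRNAs are short and start with a run of pyrimidines, the terminal oligopyrimidine motif, through which mTORC1 signalling and LARP1 set how much of them is translated. Spliced ribosomal protein mRNAs have often been copied back into the genome, which has left many near-identical pseudogenes. Heart and skeletal muscle also use Rpl3l, a paralogue of Rpl3 found in striated muscle. YBX1 is a cytoplasmic mRNA-binding protein with a cold-shock domain.

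The libraries held 12270796 to 15141525 counts. Ybx1 was at 810 to 895 normalised CPM in the controls and 110 to 203 in knockout hearts, with no overlap (exact two-sided permutation p = 0.1, the smallest that 3 against 3 hearts allow). Knockout heart 3 stood apart in composition. Mitochondrial rRNA took 10.7% of its counts against 20.5% to 26.3% in the other 5 libraries. The nuclear noncoding RNA Malat1 was at 668 deposited CPM there against 3317 to 7923 deposited CPM in the others. Of the cell type lists, the 13 ventricular cardiomyocyte markers summed to 32673 to 39110 CPM in control and 27508 to 37160 CPM in the knockouts. The 7 T and NK cell markers summed to at most 3.52 CPM in any library, and none of them passed the filter.

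No ribosomal protein gene passed the test between knockout and control hearts. In edgeR's quasi-likelihood test 0 of the 91 tested genes had an adjusted p under 0.05 (smallest 0.694), against a background of 0% of all 13717 tested genes. The smallest adjusted p of all genes in that test was 0.148. Ybx1 itself was thus not called either, so a gene that is not called may still differ. At an unadjusted p under 0.05 there was 1 of 91, Rps4l, beside 5.14% of all genes, and DESeq2 called 0 of the 91, beside 0.109% of all genes. The direction of the estimates was uneven all the same. A log2 fold change above 0 was found in 82 of 91 genes, beside 51.1% of all tested genes, and the median was 0.24, beside 0.01 over all genes. Scaled by library size alone it was 86 of 91 genes (median 0.41), beside 67.1% of all genes (median 0.17). Among canonical genes 71 of 77 were above 0 (median 0.25), 43 of 46 in the large subunit (median 0.21) and 28 of 31 in the small subunit (median 0.31). The 95% interval of the fold change lay within 2-fold either way for 74 of the 91 genes, beside 63.5% of all tested genes. All 3 knockout hearts lay above all 3 controls in 8 genes, beside 6.28% of all genes: Rpl11, Rpl13a, Rpl36a, Rpl38, Rpl39, Rps10, Rps14 and Rps4l. They lay below in 2, beside 5.84% of all genes: Rpl3l and Rps15. These 10 are named because of that separation, after their values were seen.

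**Figure D1:**
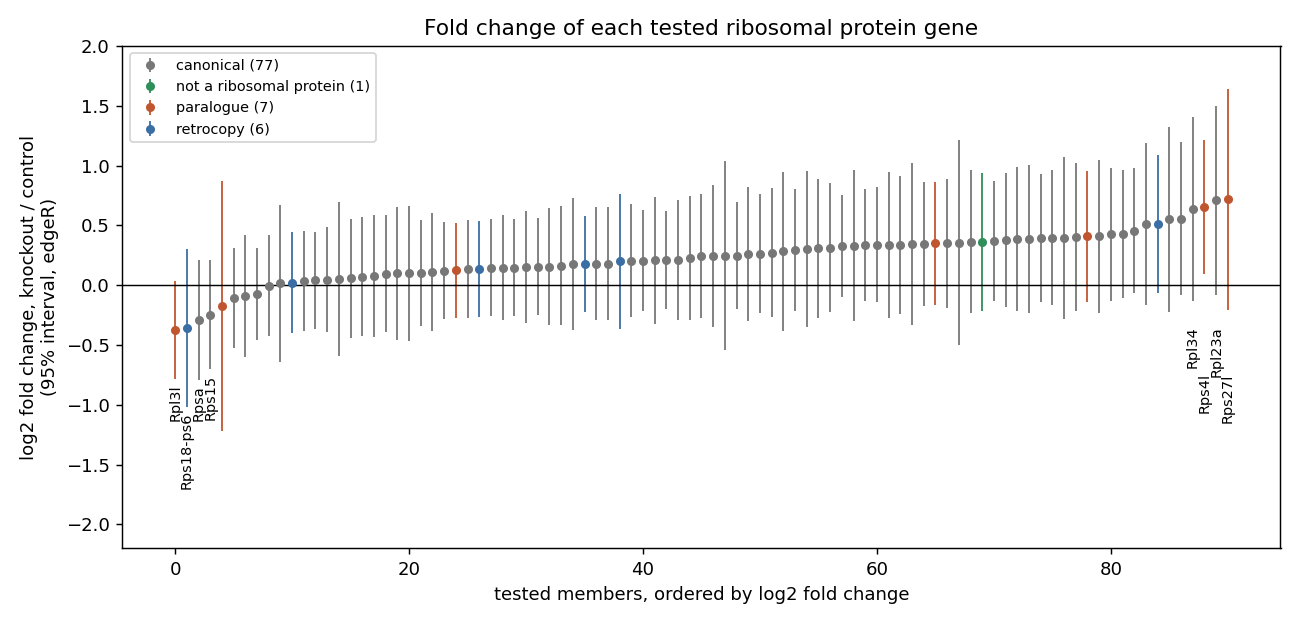
Log2 fold change of knockout over control for each of the 91 tested genes, in order of size, with 95% intervals from edgeR. The estimates of 82 genes lie above 0, and every interval but that of Rps4l (0.09 to 1.21) crosses 0.

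The excess of estimates above 0 rested largely on knockout heart 3. The summed level of all 95 genes was 14587, 13018 and 14689 normalised CPM in control hearts 1, 2 and 3. It was 13527, 14734 and 20865 CPM in the knockouts, in the same order of heart numbers. Knockout hearts 1 and 2 lay within 1 SD (937 CPM) of the control mean of 14098 CPM, and only knockout heart 3 lay above every control by more than the control spread. The log2 ratio of group means was 0.22 with all hearts and 0.003 without knockout heart 3. As a share of all counts the genes took 1.47%, 1.05% and 1.53% in the controls and 1.48%, 1.33% and 2.49% in the knockouts. Relative to each gene's control mean, the median log2 value of the tested genes was 0.56 in knockout heart 3 and between -0.13 and 0.06 in the other 5 libraries.

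**Figure D2:**
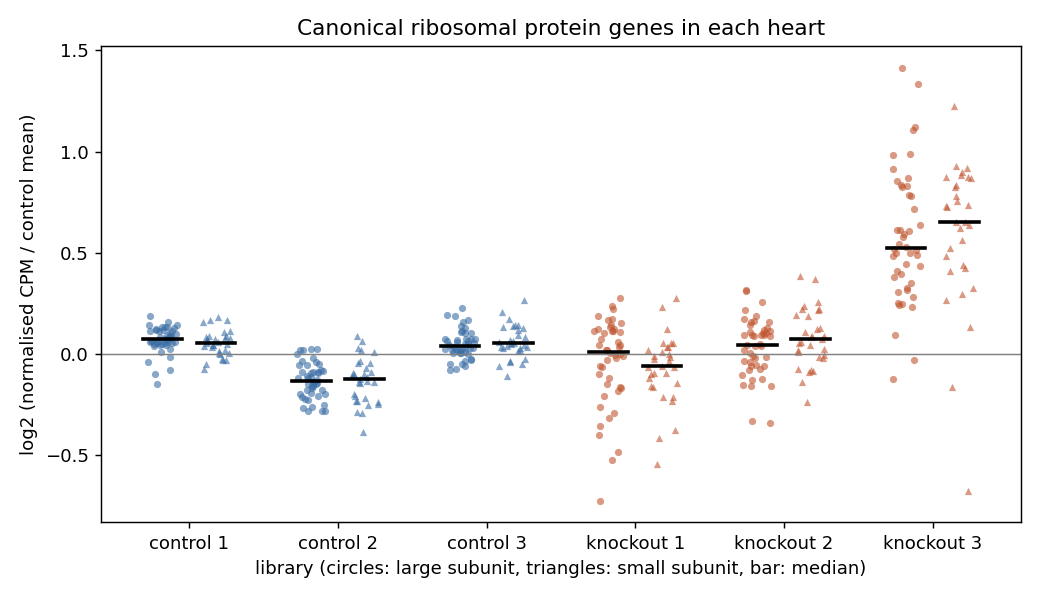
Log2 of normalised CPM over the control mean for the 77 canonical genes in each library, circles for the large and triangles for the small subunit, with a bar at the median. Knockout heart 3 was the highest library for 73 of the 77 genes, and control 2 the lowest for 45.

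Knockout heart 3 was the highest of the 6 libraries for 82 of the 91 tested genes (90.1%), beside 33.9% of all tested genes. Control heart 2 was the lowest for 51, beside 25.2% of all genes. The 9 genes that were highest elsewhere were Rpl39l, Rpl3l, Rpl6, Rpl8, Rps15, Rps18-ps6, Rps19bp1, Rps4l and Rpsa. With knockout heart 3 left out, 53 of the 91 genes had a log2 fold change above 0 (median 0.04), beside 48.6% of all genes tested then. Of the canonical genes it was 43 of 77, with a median of 0.02. Both subunits varied alike between libraries: the summed level of the large subunit over that of the small was 1.14, 1.11 and 1.12 in control hearts and 1.14, 1.13 and 1.14 in knockout hearts.

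**Figure D3:**
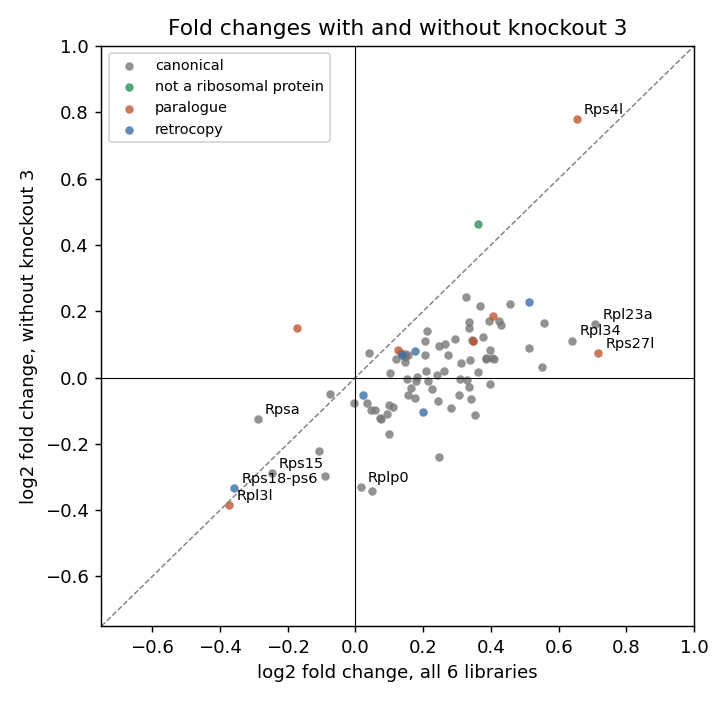
Log2 fold change of each tested gene with all 6 libraries (x axis) and without knockout 3 (y axis), with a dashed line where both are equal. Most genes lie below the line, as with Rps27l at 0.72 and 0.07, while Rpl3l (-0.37 and -0.39) and Rps4l (0.65 and 0.78) lie near it or above it.

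Other short mRNAs were also high in knockout heart 3. Transcript lengths were those of the principal coding transcript in GENCODE M21, which 89 of the 91 tested genes have, and 65 of these are up to 1 kb long. Among those 65, knockout heart 3 had a median log2 value of 0.64 over the control mean. The 691 other protein-coding genes up to 1 kb had a median of 0.50 there and were highest in that library in 63.8% of cases, against 92.3% for the ribosomal protein genes. From 1 to 2 kb the median was 0.49 for 21 ribosomal protein genes and 0.23 for 2493 others. Some annotated transcripts were long for their coding sequence, as with Rpl21 at 1856 bases for 480 coding bases. Whether these are the lengths of the mRNAs in these hearts was not tested. Other coding genes over 4 kb were at -0.16 in knockout heart 3. In control heart 2 the order ran the other way, with -0.21 for the 691 short genes and 0.06 for those over 4 kb. The short genes of both kinds thus had their lowest median in control heart 2 and their highest in knockout heart 3. In knockout heart 1 they parted, at -0.13 for the others and 0.01 for the ribosomal protein genes. The part that length, or the lower rRNA share of knockout heart 3, had in the ribosomal protein values was not tested.

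**Figure D4:**
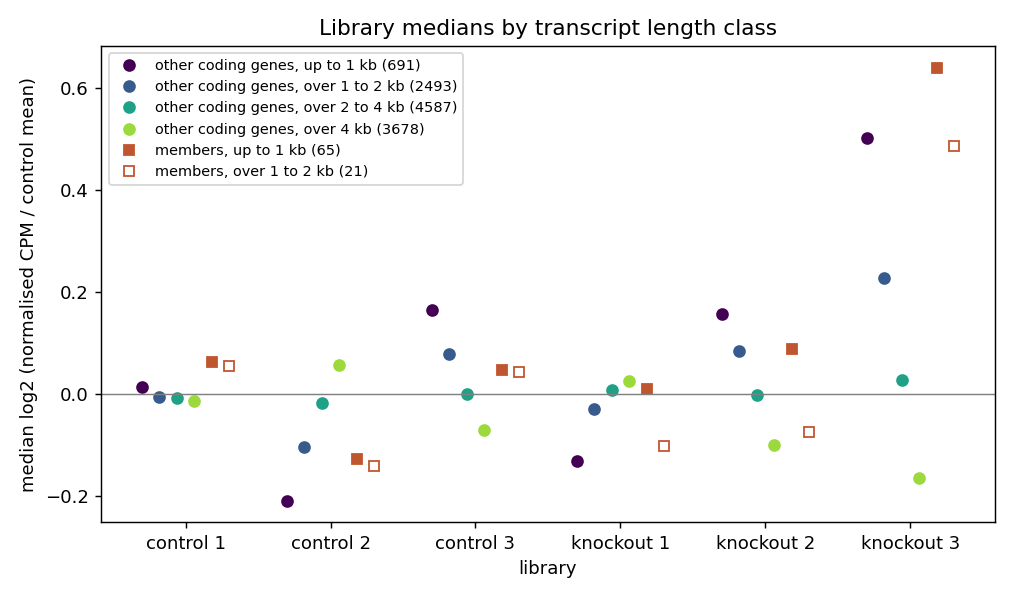
Median log2 of normalised CPM over the control mean in each library, for other protein-coding genes by transcript length (circles) and for ribosomal protein genes (squares). In knockout 3 the medians run from 0.50 for the shortest to -0.16 for the longest other genes, with ribosomal protein genes up to 1 kb at 0.64.

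Cell type markers were also uneven in that heart. The 10 fibroblast markers summed to 2401 CPM in knockout heart 3, to 1967 and 1816 in knockout hearts 1 and 2, and to 1494 to 1875 in control hearts. Of the 10, 6 were highest in knockout heart 3, beside 33.9% of all tested genes. The 10 macrophage and monocyte markers summed to 209 CPM there, to 156 and 145 in the other knockout hearts, and to 106 to 142 in control hearts. Of the 9 tested, 5 were highest in knockout heart 3. Neither list had a marker at 0 in every library. Both lists were thus highest in the heart with the highest ribosomal protein level, and their part in it was not tested.

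The ribosomal stalk, which recruits translation factors to the large subunit, is built from Rplp0, Rplp1 and Rplp2. Rplp1 was at 764, 701 and 756 CPM in the controls and 741, 861 and 1118 CPM in the knockouts. Rplp2 was at 517, 513 and 609 CPM against 414, 617 and 725. Rplp0, the scaffold that holds the others, was at 209, 166 and 230 CPM against 140, 181 and 291. In all 3 the groups overlapped, with knockout heart 1 the lowest knockout value and knockout heart 3 the highest value of all 6. The log2 fold changes were 0.29, 0.10 and 0.02. Without knockout heart 3 they were 0.12, -0.08 and -0.33.

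The 5 highest means over all 6 libraries belonged to Rps14, Rplp1, Rps21, Rplp2 and Rps15a. Rps14, a small-subunit protein of the platform, was at 751, 655 and 736 CPM in the controls and 776, 830 and 1207 CPM in the knockouts. Its groups did not overlap, but its log2 fold change of 0.39 (SE 0.24) had an interval of -0.14 to 0.93 and dropped to 0.17 without knockout heart 3. Rps14 overlaps Ndst1 on the opposite strand, and the library protocol as described has no step that keeps strand. Rps21 was at 554, 501 and 547 CPM against 454, 568 and 790. Rps15a was at 351, 325 and 394 CPM against 319, 363 and 673. In both genes knockout heart 1 was below all controls and knockout heart 3 above them.

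Levels between genes were compared per kb of transcript, as normalised CPM per kb in control hearts. The canonical genes ranged from 17.8 to 1483 per kb with a median of 167. The highest was Rplp1, followed by Rps21 at 1356, and the lowest were Rps6 at 17.8, Rpl29 at 24.5 and Rpl15 at 27.9. These extremes are named after their values were seen. Rps6 encodes the target of the S6 kinases. The canonical genes thus spanned 83.2-fold per kb. Counts shared with pseudogenes, described with the retrocopies, enter these levels. So does the annotated transcript, as with Rps20, where 187 CPM over 3706 bases gave 50.6 per kb.

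The largest estimates above 0 in canonical genes were in the large subunit. Rpl23a, which lies at the exit of the nascent peptide tunnel, was at 154, 131 and 147 CPM in the controls and 168, 153 and 383 CPM in the knockouts. Its log2 fold change was 0.71 (SE 0.35, 95% interval -0.08 to 1.49) with all hearts and 0.16 without knockout heart 3. Rpl34 was at 142, 117 and 130 CPM against 141, 138 and 326, with a log2 fold change of 0.64 and of 0.11 without that heart. Rpl39, a very small protein in the wall of the tunnel, was at 83.2, 74.0 and 84.1 CPM against 90.4, 89.7 and 175. Its log2 fold change was 0.56, and 0.16 without knockout heart 3. All 3 genes were more than 2-fold above the control mean in knockout heart 3, at 2.67, 2.52 and 2.17 times it, and close to the controls in the other knockout hearts. The adjusted p of each was 0.694 by edgeR. Rpl23a overlaps Tlcd1 on the other strand and carries small nucleolar RNAs in its introns.

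The canonical genes with the lowest estimates were Rpsa and Rps15. Rpsa encodes a small-subunit protein also known as the laminin receptor. It was at 348, 353 and 313 CPM in the controls and 332, 286 and 211 CPM in the knockouts, where knockout heart 3 was the lowest of all 6, at 0.626 times the control mean. Its log2 fold change was -0.29 (SE 0.22, 95% interval -0.79 to 0.21), and -0.13 without knockout heart 3. Rps15, a small-subunit protein near the decoding site, was at 307, 324 and 321 CPM against 217, 301 and 283. All 3 knockout hearts lay below the controls, with a log2 fold change of -0.25 (SE 0.20, 95% interval -0.70 to 0.21) and of -0.29 without knockout heart 3. The 4 other canonical genes below 0 were Rpl28, Rpl4, Rpl6 and Rps12, at -0.11, -0.09, -0.08 and -0.0045. Without knockout heart 3 they were at -0.22, -0.30, -0.05 and -0.08.

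Promoter sequences from RefSeq (GRCm38.p6, 250 bases before to 50 after each start) matched 67 of the 95 genes, 57 canonical ones among them. They are shown for the matched canonical genes and paralogues with the highest and lowest estimates, since the pyrimidine run at the start is the feature these mRNAs are known for. Each window runs from 25 bases before to 15 bases from the start onwards, on the transcript strand, and capitals mark the longest run of C or T where it has at least 8 bases.
Rps27l, start 1, chr9:66946061-66946100, plus strand: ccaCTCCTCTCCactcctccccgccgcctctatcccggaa
Rps27l, start 2, chr9:66946388-66946427, plus strand: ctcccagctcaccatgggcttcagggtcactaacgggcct
Rpl34, start 1, chr3:130730384-130730423, minus strand: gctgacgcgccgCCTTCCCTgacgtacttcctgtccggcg
Rpl34, start 2, chr3:130730323-130730362, minus strand: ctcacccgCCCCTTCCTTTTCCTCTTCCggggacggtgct
Rpl39, chrX:37085208-37085247, minus strand: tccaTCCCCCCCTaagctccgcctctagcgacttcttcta
Rpl3l, start 1, chr17:24727801-24727840, plus strand: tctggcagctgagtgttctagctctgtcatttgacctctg
Rpl3l, start 2, chr17:24732660-24732699, plus strand: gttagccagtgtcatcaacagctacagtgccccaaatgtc
Rpsa, chr9:120127741-120127780, plus strand: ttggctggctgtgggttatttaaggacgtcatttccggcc
Rps15, chr10:80292406-80292445, plus strand: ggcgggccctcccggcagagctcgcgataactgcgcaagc
A run of at least 8 C or T lay within 25 bases of 1 or more starts of Rps27l, Rpl34 and Rpl39. None lay there in Rpl3l, Rpsa and Rps15. The marked runs of Rps27l, Rpl39 and Rpl34 start 1 end before the start, and only that of Rpl34 start 2 spans it. The search thus does not tell which mRNAs begin with a pyrimidine run. These 6 genes were picked by their estimates, so the split is a description and was given no test.

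Over all canonical genes with a RefSeq entry, 31 of 67 promoters (46.3%) held a run of at least 8 C or T within 25 bases of the start on the transcript strand, against 19.7% of all 32851 promoters. The motif CCGGAAG, the core recognised by ETS-family factors, was found on either strand in 37.3% of them against 8.86% of all. Its reverse complement, CTTCCGG, begins with C and T bases that can form the end of such a run, and 14 of the 67 promoters held both. ATTGG, the inverted CCAAT box to which Y-box proteins were first found to bind, was present on either strand in 31.3% against 37.4% of all. A match gives the letters in this window and is no measure of binding.

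Rpl3l and Rpl3 encode alternative forms of one large-subunit protein near the peptidyl transferase centre. The coding sequences share 946 of 1262 aligned bases in GENCODE M21 (GRCm38), Rpl3 at chr15:80077791-80083406 on the minus strand and Rpl3l at chr17:24727820-24736143 on the plus strand, each in 10 exons. The first 60 coding bases are shown because reads can tell this pair apart: the 13 bases in capitals differ.
Rpl3: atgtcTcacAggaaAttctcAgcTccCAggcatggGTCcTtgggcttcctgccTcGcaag
Rpl3l: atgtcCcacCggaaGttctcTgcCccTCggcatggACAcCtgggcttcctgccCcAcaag
Rpl3l was at 149, 172 and 183 CPM in the controls and 136, 121 and 132 CPM in the knockouts. All 3 knockout hearts lay below all 3 controls. The log2 fold change was -0.37 (SE 0.18, 95% interval -0.78 to 0.04) and -0.39 without knockout heart 3, and it missed the threshold (edgeR adjusted p = 0.694). Rpl3 was at 64.8, 63.3 and 59.3 CPM against 54.0, 64.2 and 73.5, with overlapping groups and a log2 fold change of 0.03.

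The share of Rpl3l in the sum of Rpl3 and Rpl3l needs no scaling between libraries. It was 69.7%, 73.1% and 75.5% in control hearts and 71.5%, 65.4% and 64.3% in knockout hearts. The means were 72.8% ± 2.89 and 67.0% ± 3.91 (SD, n = 3 each), and the groups overlapped because knockout heart 1 lay above control heart 1. The difference was -5.72 percentage points (exact two-sided permutation p = 0.2, in a design whose smallest p is 0.1). Counts of Rpl3, unlike those of Rpl3l, were not whole numbers. With the counts of pseudogenes named after Rpl3 added to Rpl3, the share was 64.6% to 71.4% in control and 59.9% to 65.3% in knockout hearts. Rpl3l carried most of the counts in every heart either way.

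**Figure D5:**
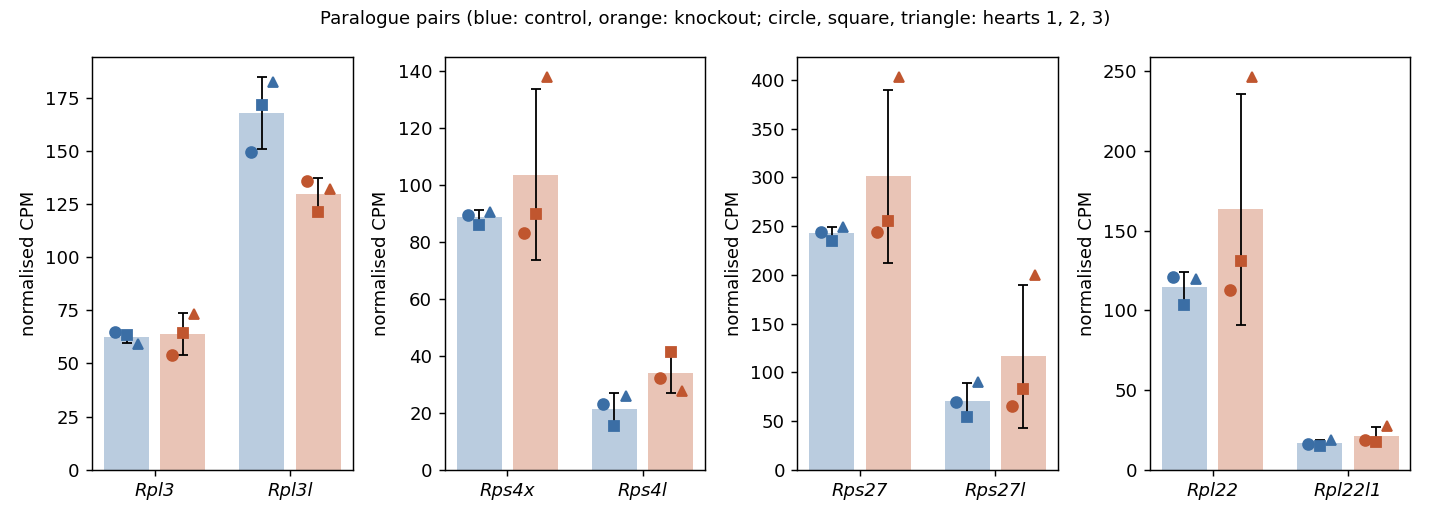
Normalised CPM of 4 paralogue pairs in control (blue) and knockout (orange) hearts, with the mean as a bar, the SD as a line and each heart as a point. Rpl3l exceeds Rpl3 in all 6 hearts, whereas Rps4l, Rps27l and Rpl22l1 lie below their partners; the triangle at the top of most orange bars is knockout heart 3.

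The other paralogues had lower levels than their partners. Rps27l, a p53-responsive relative of Rps27, was at 69.1, 53.7 and 89.6 CPM in the controls and 65.6 and 83.2 CPM in knockout hearts 1 and 2. Knockout heart 3 was at 2.83 times the control mean of 70.8 CPM. Its log2 fold change of 0.72 had the 95% interval -0.21 to 1.64, and without knockout heart 3 it was 0.07. Its partner Rps27 was at 244, 235 and 249 CPM against 244, 255 and 403. Both were high in knockout heart 3 and within or close to the control range in the other knockout hearts. Rps27l was 29.1% ± 6.61 of Rps27 in control and 36.3% ± 11.8 in knockout hearts (SD, n = 3 each; exact permutation p = 0.5).

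Rps4l was the only member past an unadjusted p of 0.05 and the only one of the 5 largest estimates that did not rest on knockout heart 3. It was at 23.0, 15.5 and 25.9 CPM in the controls and 32.4, 41.5 and 27.7 CPM in the knockouts, with no overlap. The log2 fold change was 0.65 (SE 0.25, 95% interval 0.09 to 1.21) and 0.78 without knockout heart 3, with an edgeR adjusted p of 0.694. The gene is uncertain: GENCODE M21 gives it no coding transcript, and it overlaps Tmtc1 on the opposite strand. Tmtc1 was at 10.4, 10.8 and 12.5 CPM in the controls and 11.2, 10.6 and 26.3 CPM in the knockouts, a different order of the libraries. The X-linked partner Rps4x was at 89.6, 85.9 and 90.5 CPM against 83.2, 89.7 and 138.

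Rpl22l1 was at 16.4, 14.8 and 18.7 CPM in the controls and 18.8, 17.2 and 27.6 CPM in the knockouts, a log2 fold change of 0.35. Its partner Rpl22 was at 121, 104 and 120 CPM against 113, 131 and 247, a log2 fold change of 0.51. Rpl36al and Rpl36a had log2 fold changes of 0.41 and 0.40, and Rpl7l1 and Rpl7 of 0.12 and 0.18. Within each of these pairs both genes were highest in knockout heart 3. Without that heart Rpl22l1 and Rpl22 were at 0.11 and 0.09, Rpl36al and Rpl36a at 0.18 and 0.08, and Rpl7l1 and Rpl7 at 0.08 and 0.0011. Rpl39l was at only 1.05 ± 0.396 CPM in control hearts (SD, n = 3), and its log2 fold change of -0.17 had an interval of -1.22 to 0.87 and was 0.15 without knockout heart 3. Over the 8 pairs the smallest exact permutation p for a paralogue against its partner was 0.2, for Rpl3l (0.914 after Benjamini-Hochberg adjustment over the pairs).

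Most counts of ribosomal protein genes were not whole numbers. Of the 91 tested genes 3, with Rpl3l and Rps19bp1 among them, had whole counts in all 6 libraries, beside 58.3% of all tested genes, and the other 88 carried fractions of reads. The retrocopy Rpl35rt held 95.3% to 99.6% as many counts as Rpl35, and Rpl10-ps3 held 73.7% to 87.8% as many as Rpl10. The first coding bases of Rpl35 (chr2:39001580-39005624, minus strand, 4 exons) and Rpl35rt (chr1:156366040-156366484, plus strand, 1 exon) are shown beside each other: no base differs, so none is in capitals.
Rpl35: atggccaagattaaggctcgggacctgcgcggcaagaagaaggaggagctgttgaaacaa
Rpl35rt: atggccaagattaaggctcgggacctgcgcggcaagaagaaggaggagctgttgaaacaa
The whole coding sequences were 99.7% identical for this pair and 100% for Rpl10 with Rpl10-ps3 and for Rps27 with Rps27rt.

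The values of a gene and such a copy cannot be taken as separate measurements. Rpl35 was at 108, 103 and 97.1 CPM in the controls and 111, 103 and 127 CPM in the knockouts, and Rpl35rt had a log2 fold change of 0.14 beside 0.15 for Rpl35, or 0.07 beside 0.06 without knockout heart 3. Rpl10-ps3, among the 5 genes with the smallest p, had a log2 fold change of 0.51 beside 0.43 for Rpl10, or 0.23 beside 0.16 without knockout heart 3. Rps18-ps6, at 2.05 ± 0.405 CPM in control hearts (SD, n = 3), had a log2 fold change of -0.36 (95% interval -1.02 to 0.31). The 312 pseudogenes named after these genes, 246 of them with a count, held 9.08% to 11.8% as many counts as the genes, lowest in knockout heart 3. Rps19bp1, which has whole counts, was at 7.02, 4.24 and 7.41 CPM in the controls and 8.06, 9.23 and 6.87 CPM in the knockouts (log2 fold change 0.36), and it was not highest in knockout heart 3.

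Fau and Rack1, which lie outside the naming rule, had estimates near 0. Fau encodes a ribosomal protein as a fusion with a ubiquitin-like protein, and Rack1 encodes a scaffold on the small subunit. Rack1 was at 324, 307 and 290 CPM in the controls and 297, 277 and 287 CPM in the knockouts, a log2 fold change of -0.10. Fau was at 173, 159 and 166 CPM against 146, 176 and 172, a log2 fold change of -0.01. Neither was highest in knockout heart 3. The signs of both turned with library size scaling, to 0.066 for Rack1 and 0.14 for Fau.

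Elongation factors and other mRNAs with a terminal oligopyrimidine motif share the translational control of ribosomal protein mRNAs. None of the 22 tested was called, 15 were above 0 (median 0.14) and 15 were highest in knockout heart 3, beside 33.9% of all tested genes. Eef2, the factor that moves the ribosome along the mRNA, was at 352, 412 and 380 CPM in the controls and 204, 311 and 250 CPM in the knockouts. Its groups did not overlap, with a log2 fold change of -0.58 (SE 0.22, 95% interval -1.07 to -0.09; edgeR adjusted p = 0.694). Btf3, a subunit of the nascent polypeptide-associated complex, was at 0.44, or 0.17 without knockout heart 3.

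Factors that assemble ribosomes gave 0 calls at an adjusted p under 0.05 in edgeR, with 3 small subunit and 4 large subunit factors at an unadjusted p under 0.05, beside 5.14% of all genes. Of 33 small subunit assembly factors 18 were above 0 (median 0.07) and of 38 large subunit factors 19 (median -0.0027). Pno1, which acts late in small subunit assembly, was at 9.35, 8.20 and 11.2 CPM in the controls and 12.5, 15.7 and 19.3 CPM in the knockouts, a log2 fold change of 0.72. The helicase Dhx37, which acts on the small subunit precursor, was at 1.65, 1.77 and 1.59 CPM against 2.51, 2.42 and 2.74, a log2 fold change of 0.64. Rsl24d1, a placeholder protein of the large subunit precursor, was at 0.85, or 0.42 without knockout heart 3, and Nip7 at 0.45. The groups of Pno1, Dhx37 and Nip7 did not overlap, and their values without knockout heart 3 were 0.55, 0.58 and 0.39. All 3 knockout hearts lay above all controls in 5 of 33 small subunit and 4 of 38 large subunit factors, beside 6.28% of all genes. They lay below in 0 and 2, beside 5.84% of all genes.

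Chaperones that escort single ribosomal proteins were above 0 in 9 of 13 (median 0.15), with Tsr2, the escort of Rps26, at 0.58 and Pdcd2 at 0.59. Without knockout heart 3 Tsr2 was at 0.47 and Pdcd2 at 0.61. RNA polymerase I and rDNA transcription genes were above 0 in 10 of 20 (median -0.0040). Myc, a transcription factor that drives ribosome production, was at 0.78 and the polymerase subunit gene Polr1e at 0.54. Without knockout heart 3 Myc was at 1.01 and Polr1e at 0.46. The mean of Myc in control hearts was only 2.42 CPM. In the mTORC1, LARP1 and S6 kinase list 8 of 20 were above 0 (median -0.12). Its smallest p belonged to Rheb, the activator of mTORC1, at 0.75, and Eif4ebp1, the translation repressor that mTORC1 phosphorylates, at 0.59. Without knockout heart 3 these were at 0.42 and 0.32. In ribosome quality control and hibernation 10 of 19 were above 0 (median 0.04). Gcn1, a sensor of stalled ribosomes, was at -0.51 (-0.28 without knockout heart 3) and Ifrd2 at -0.26 (-0.28 without that heart). None of these was called. Knockout heart 3 was the highest library in 7 of the 13 chaperone genes and 3 of the 20 polymerase I genes. It was highest in 6 of the 20 mTORC1 genes and 3 of the 19 quality control genes, beside 33.9% of all tested genes. These values are log2 fold changes from the same fit as the ribosomal protein genes.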

How the data were processed

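RNA from 3 control and 3 knockout hearts was measured with libraries primed by anchored oligo(dT) and tagmented, per the labels' protocols. The authors deposited estimated counts and CPM for 78409 genes. Per the submitters' processing notes, reads were handled with edgeR 4.0.16, Subread 2.1.1 with featureCounts, STAR 2.7.11 and SAMtools 1.22.1, on build mm39. The treatment of multi-mapping reads is not given in the sources used here. Deposited CPM carries no scaling factor.

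The deposited counts were rounded to whole numbers and tested with edgeR 4.0.16 (R 4.3.3), quasi-likelihood with TMM factors, over 13717 genes with at least 1 CPM in at least 3 of 6 libraries, with Benjamini-Hochberg adjustment and a threshold of 0.05, two-sided. Printed CPM are TMM-normalised unless called deposited, and fold changes are knockout over control. The test was tried on simulated counts, with a pass mark only at a lower spread than in these data. Its recovery of changes at the spread of these hearts is not reported here. DESeq2 1.42.0 and limma 3.58.1, the latter on CPM without TMM factors, were alternatives. With totals of 12270796 to 15141525 counts, the common biological coefficient of variation was 0.253 and the median interval of a member's log2 fold change was 1.04 wide. No libraries were duplicates. The p-values measure the spread between these 6 hearts.

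The members and lists were chosen with earlier results of these data known. Named with values are the 5 largest and 5 smallest log2 fold changes, the 5 smallest p, the 5 highest mean CPM, Rpsa and the stalk genes, paralogue pairs, untested members, Rps19bp1, Rack1 and Fau outside the naming rule, and the 2 smallest p of each other list. Coordinates and sequences come from GENCODE M21 (GRCm38) and RefSeq (GRCm38.p6) by gene name or ID, with no conversion to mm39. Some items covered by these rules are not reported here.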

Additional observations from a re-analysis of the deposited data

How the results depend on the processing

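No member was called at an adjusted p under 0.05 in any alternative of edgeR, DESeq2 or limma-trend. At an unadjusted p under 0.05, DESeq2 gave 3 of 91 members (beside 5.08% of all genes), the replicate block 4 of 91 (13.2%), no filter 8 of 94 (7.48%), and leaving out 1 library 0 to 11, the most without knockout heart 1 (11 of 90, beside 12.7%). Leaving out 1 library at a time gave 53 to 83 members above 0, the lowest without knockout heart 3; medians of 0.04 to 0.36; summed log2 ratios of 0.003 to 0.34; and differences in the Rpl3l share of -7.96 to -4.33 points. Other settings gave 75 to 86 members above 0. Library size alone, with no scaling factor, moved the median over all genes to 0.17, with 67.1% of genes above 0, and that of the members to 0.41, with 86 of 91 above 0. Limma-trend was run on CPM that also had no scaling factor. It put 65.6% and 65.9% of all genes above 0 with a pseudocount of 0.5 and 2, and 86 of 91 members each time. Chosen after seeing the data, canonical members alone had a median of 0.25. With heart number as a replicate block, 80 of 91 members were above 0 (median 0.20) and 5 of all genes were called. The numbers were not taken as pairs because the labels do not say that they pair animals. Same-numbered hearts correlated at -0.11, 0.45 and 0.58, and differently numbered ones at -0.70 to 0.57. Without a filter 133 of 33251 genes were called, and by DESeq2 15 of 13717. Of 44 named genes 35 kept the sign of their log2 fold change throughout. Signs turned for Rplp0 (-0.017 with factors from coding genes, -0.040 with at least 10 CPM, -0.038 with the block), Rpl3 (-0.021 with at least 10 CPM), Rack1 (0.066 by library size, 0.063 and 0.063 by limma-trend with a pseudocount of 0.5 and 2) and Fau (0.14 by library size, 0.010 with no filter, 0.14 and 0.14 by limma-trend); the cause was not tested. Leaving out libraries also turned Fau (-0.077 to 0.063), Rpl3 (-0.078 to 0.14), Rpl39l (-0.34 to 0.15), Rplp0 (-0.33 to 0.22), Rplp2 (-0.083 to 0.29), Rps15a (-0.063 to 0.53), Rps21 (-0.062 to 0.34) and Rps4x (-0.036 to 0.36).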
